A study of Homo sapiens with 12 samples.

Results

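Chromosome 4 was read from end to end, gene by gene, in MDA-MB-231 cells whose LSD1 or HDAC5 had been knocked down. Its members are the genes on chromosome 4 in RefSeq annotation of GRCh38.p14 that had a probe set with a single gene symbol and a mean log2 value over the 12 arrays above 5.98, the 40th percentile of all probe sets. By that rule 273 of the 452 measured chromosome 4 genes were members, out of 11963 measured genes in all, of which 7996 passed the same level. The chromosome was chosen from the LSD1 shRNA values themselves, because many of its genes were lower there, so the changes with each shRNA are given below as descriptions. The lowest member was CTSO at 5.98, and the highest chromosome 4 gene left out was CRMP1 at 5.95.

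MDA-MB-231 is a long-established line of human triple-negative breast cancer cells with a mesenchymal character. RNA was measured on Affymetrix 3′ expression arrays in 4 groups of 3 biological replicates, 1 array each. One group received lentiviral particles with a short hairpin RNA (shRNA) against HDAC5, another received particles with an shRNA against LSD1, and each was set against cells given a scramble shRNA. The scramble set tagged for the LSD1 experiment has replicates A, B and C, and the untagged scramble set, with replicates 1 to 3, was assigned to HDAC5. All 4 groups thus carry a lentiviral shRNA and none is untransduced. The sources used here do not say what separates the replicates, so the spread and the p-values may be technical only. The targets were lower where they should be: KDM1A, the gene of LSD1, had a mean of 9.72 (log2) with scramble and 6.63 with LSD1 shRNA, and HDAC5 had 7.40 with scramble and 6.29 with HDAC5 shRNA. All 8 mesenchymal markers checked were above the level in every group, VIM among them. FN1, fibronectin, was at 10.20 with LSD1 scramble and 12.51 with LSD1 shRNA. Of 8 luminal breast markers 4 were above the level in all groups and 1 was under it in all. The mean of CDH1, E-cadherin, was 4.18 with LSD1 scramble and 6.40 with LSD1 shRNA. Of 4 blood markers CD3E and HBB were above the level in all groups, with means up to 6.41 and 6.72, while PTPRC, the common leukocyte marker, was at 3.46 to 3.57. Of 6 fibroblast and endothelial markers only PECAM1 was above it in all groups, and LUM was at 2.61 with LSD1 scramble and 4.15 with LSD1 shRNA. The part of these markers in the results below was not tested. In bulk RNA, fewer cells with a transcript and less of it per cell cannot be told apart.

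LSD1 is a histone demethylase that removes methyl groups from lysine 4 of histone H3 at promoters and enhancers, mostly as part of repressor complexes with CoREST and histone deacetylases. HDAC5 is a class IIa histone deacetylase, a signal-dependent repressor that has little catalytic activity of its own and works through partner proteins. Genes that neighbour each other on a chromosome share chromatin domains, replication timing and DNA dosage, so values read in map order can show blocks that lists ordered by function hide. No DNA was measured in the data used here.

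The promoters below are examples from the deepest lowered block, in the first stretch, and from members of the third stretch that escaped the lowering. They do not stand for all members that escaped. SLIT2 and PPARGC1A, which escaped beside the deepest block, have more CpG than LAP3 and NCAPG, as given further on. LAP3 and NCAPG had the largest decreases among members with LSD1 shRNA, and PLAC8 and HPSE are the members inside a lowered stretch that were called higher. Each runs 5′ to 3′ from 250 bases before to 50 bases after the RefSeq gene start (GRCh38.p14), and capitals mark every CpG dinucleotide.
LAP3 (chr4:17576948-17577247, + strand): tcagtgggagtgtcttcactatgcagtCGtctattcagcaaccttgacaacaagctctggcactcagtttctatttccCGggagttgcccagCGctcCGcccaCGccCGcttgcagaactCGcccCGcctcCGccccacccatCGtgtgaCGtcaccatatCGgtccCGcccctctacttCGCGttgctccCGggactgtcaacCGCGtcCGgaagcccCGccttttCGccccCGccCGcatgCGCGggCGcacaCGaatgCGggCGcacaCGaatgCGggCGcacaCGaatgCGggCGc
NCAPG (chr4:17810729-17811028, + strand): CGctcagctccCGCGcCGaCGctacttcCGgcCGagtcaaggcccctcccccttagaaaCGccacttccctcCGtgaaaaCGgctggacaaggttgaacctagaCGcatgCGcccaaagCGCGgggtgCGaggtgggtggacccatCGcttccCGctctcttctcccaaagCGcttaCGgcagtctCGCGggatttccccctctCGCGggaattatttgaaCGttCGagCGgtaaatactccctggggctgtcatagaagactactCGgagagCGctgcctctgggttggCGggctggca
PLAC8 (chr4:83114680-83114979, - strand): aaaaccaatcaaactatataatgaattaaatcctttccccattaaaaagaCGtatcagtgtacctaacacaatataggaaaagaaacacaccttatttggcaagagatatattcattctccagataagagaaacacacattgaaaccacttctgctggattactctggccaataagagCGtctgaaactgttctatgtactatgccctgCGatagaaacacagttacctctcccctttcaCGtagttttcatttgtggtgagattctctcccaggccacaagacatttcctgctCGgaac
HPSE (chr4:83335104-83335403, - strand): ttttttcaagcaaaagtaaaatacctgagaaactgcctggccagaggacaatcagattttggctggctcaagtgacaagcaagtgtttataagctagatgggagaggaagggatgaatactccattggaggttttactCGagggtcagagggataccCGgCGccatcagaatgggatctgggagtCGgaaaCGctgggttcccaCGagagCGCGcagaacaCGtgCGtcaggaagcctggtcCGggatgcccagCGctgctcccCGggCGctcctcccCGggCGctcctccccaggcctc
The LAP3 window holds 35 CpG and the NCAPG window 29, against 5 in PLAC8 and 16 in HPSE.

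With LSD1 shRNA the median change of the 273 members was -0.32 on the log2 scale, and 219 of them (80.2%) were below 0. Over all genes past the level 51.4% were below 0, and on chromosome 10 the share was 81.1%. The median of all 7996 genes past the level was -0.01. Chromosome 4 had the lowest median of the 23 chromosomes with genes on the array, the others lying between -0.20 (chromosome 10) and 0.09 (chromosome 9). The members' median was -0.365, -0.254 and -0.295 on LSD1 shRNA arrays 1, 2 and 3, each set against the mean of the scramble arrays. On scramble arrays A, B and C it was -0.034, 0.039 and 0.010, so the arrays of the groups do not overlap. In the median of the whole array, LSD1 shRNA replicate 2 (7.16) and scramble B (7.10) were the highest of their groups. Pairwise correlations within the LSD1 experiment's groups were 0.991 to 0.998. Without LSD1 shRNA 2 and scramble B the members' median was -0.317, and without scramble A it was -0.333.

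**Figure D1:**
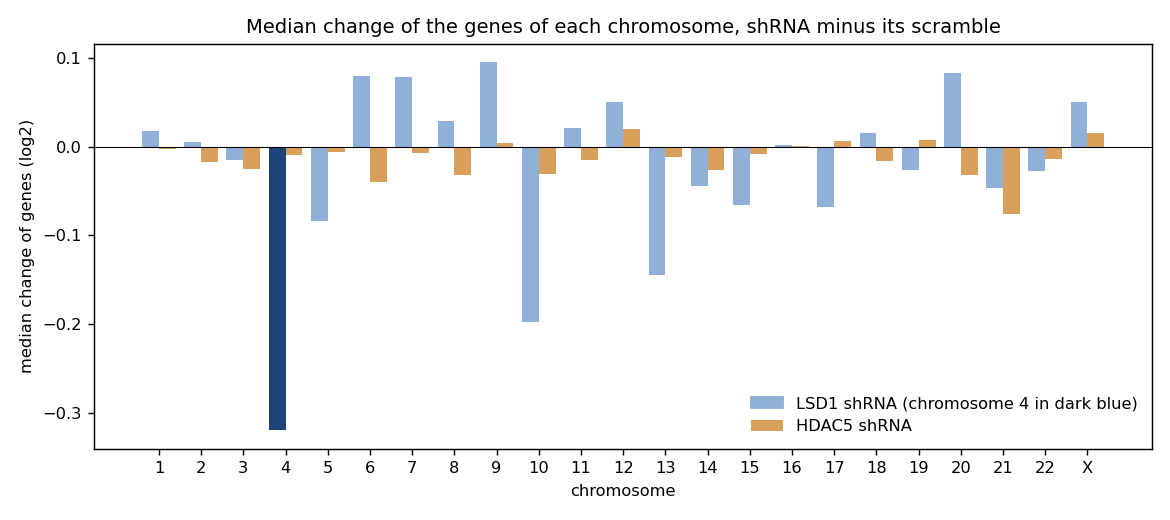
Median log2 change of the genes past the level on each of 23 chromosomes, with LSD1 shRNA (blue, chromosome 4 in dark blue) and with HDAC5 shRNA (orange), each minus its own scramble mean. The chromosome 4 bar for LSD1 shRNA reaches -0.32, and the HDAC5 bars lie between -0.08 and 0.02.

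In limma's fit over all genes, with Benjamini-Hochberg adjusted p under 0.05 as the call, 59 members were lower with LSD1 shRNA and 4 were higher. Over all genes past the level the calls were 2.85% lower and 3.23% higher. The same fit over all 11963 genes called 2.00% lower and 2.93% higher. All 3 LSD1 shRNA arrays lay below all 3 scramble arrays for 137 members (50.2%), beside 17.1% of the genes past the level. On chromosome 10 this share was 41.3%. For 22 chromosome 4 members they lay above, beside 17.0% of the genes past the level. Since the chromosome was chosen from these values, the counts describe it and test nothing. The number of calls depended strongly on single arrays. It was 7 lower without scramble C, 8 without scramble B, 13 without LSD1 shRNA 1, 22 without LSD1 shRNA 3, 26 without scramble A and 72 without LSD1 shRNA 2. The corresponding share over all genes past the level ranged from 0.263% to 4.29%.

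Lowered stretches were defined as runs of at least 5 members whose running median over 11 successive members was -0.2 or less. By this rule 6 stretches held 196 members (71.8%) and covered 138 Mb, 74.1% of the 186 Mb from the first member to the last. Each edge is uncertain by up to 5 members, because the running median reaches that far. On the other 22 chromosomes the same rule took in 537 of 7719 genes (6.96%). Of those chromosomes 14 had any stretch, the longest held 38 members, and the highest share was 40.6%, on chromosome 13. Chromosome 10 followed with 38.8% of its genes, in 7 stretches. The change of a member with LSD1 shRNA had a Spearman correlation of 0.25 with that of the next member over 272 successive pairs, against 0.01 for the HDAC5 changes. Successive members share arrays, and these values carry no p.

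**Figure D2:**
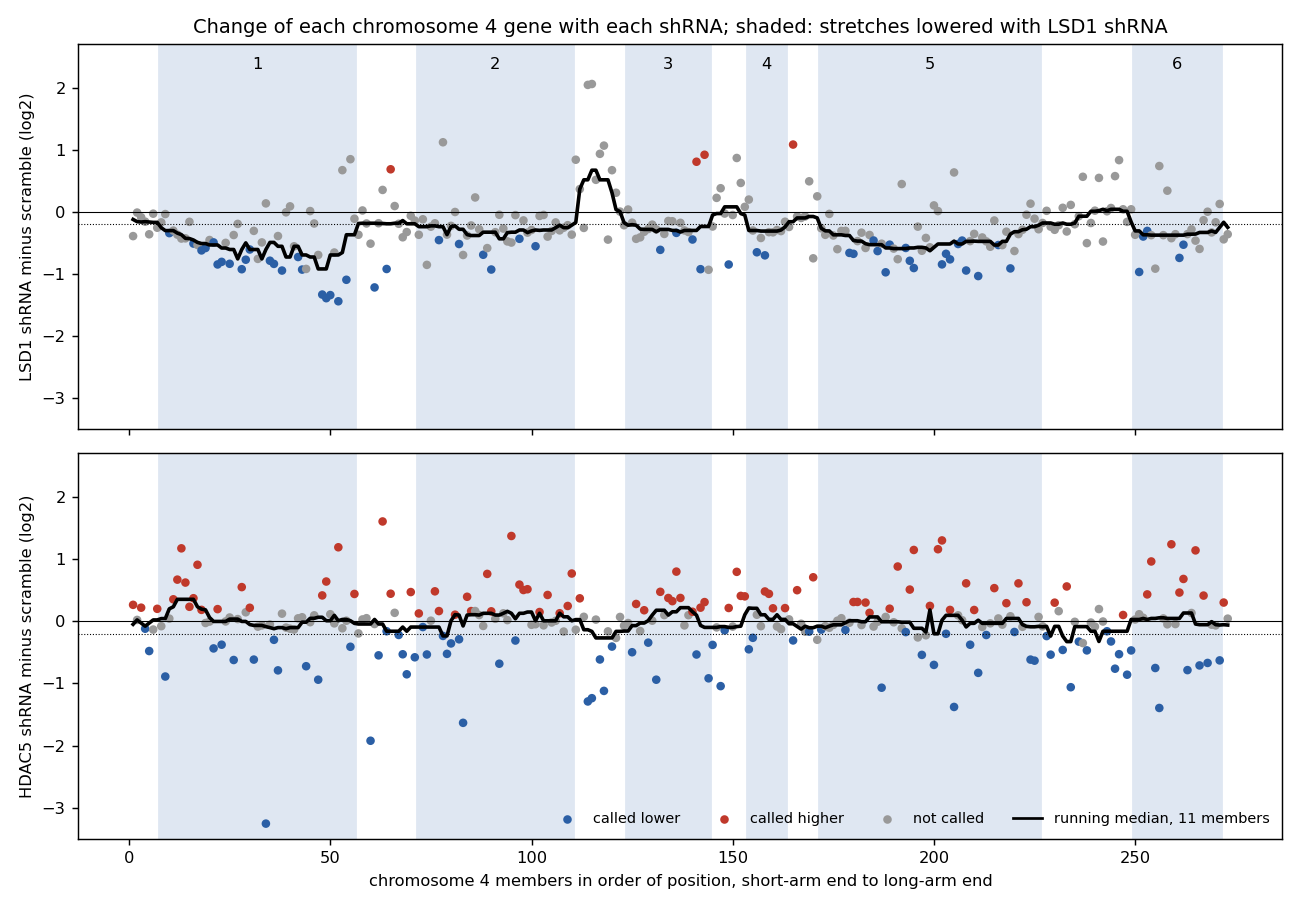
Log2 change of each of the 273 members with LSD1 shRNA (top) and HDAC5 shRNA (bottom), in order of position, with the running median over 11 members. Shaded bands 1 to 6 are the stretches lowered with LSD1 shRNA, where the top running median stays at or below -0.2 (dotted). With HDAC5 shRNA the members of each band have a median between -0.02 and 0.10. Within band 1 the bottom running median is at 0.2 or above over 7 members, MAEA to HAUS3.

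The first stretch ran from GAK to DHX15 (chr4:849277-24584554), 49 members over 23.7 Mb of the short arm, with a median of -0.51. Its medians on the 3 LSD1 shRNA arrays were -0.529, -0.523 and -0.512, so arrays that differ elsewhere gave much the same depth here. Calls were lower for 21 of its members and higher for 0, and 32 had non-overlapping arrays on the low side. The decrease deepened inward. The running median was -0.26 at its shallowest and -0.92 at its deepest point, over the members around QDPR, LAP3, MED28 and NCAPG.

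That deepest block held the 4 largest decreases among the members. NCAPG, a subunit of the condensin complex that compacts chromosomes in mitosis, was at 11.06, 10.81 and 11.05 on the scramble arrays and at 9.74, 9.05 and 9.82 on the LSD1 shRNA arrays. It fell by 1.44 (SE 0.21), a 2.71-fold decrease. LAP3, a cytosolic leucine aminopeptidase, was at 11.27, 11.01 and 11.17 with scramble and at 9.65, 9.57 and 10.06 with LSD1 shRNA, a change of -1.39 (SE 0.15). The groups are fully apart in both genes. MED28, a subunit of the Mediator complex, went from 9.70, 9.47 and 9.37 to 8.01, 8.28 and 8.23, a change of -1.34 (SE 0.13). QDPR, which regenerates the tetrahydrobiopterin cofactor of the aromatic amino acid hydroxylases, went from 11.12, 10.86 and 10.92 to 9.54, 9.50 and 9.87, a change of -1.33 (SE 0.13). DCAF16, which lies between MED28 and NCAPG, was not called, with a change of -0.65 (SE 0.24). A further probe set of NCAPG gave -1.46. In the 7 fits that left out an array or a pair of arrays, QDPR and MED28 were called in all, LAP3 in 6 and NCAPG in 3.

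On the far side of the block, ADGRA3, an adhesion-type orphan receptor, was at 9.33, 9.36 and 9.22 with scramble and at 8.09, 8.31 and 8.25 with LSD1 shRNA, a change of -1.09 (SE 0.10). It stands between SLIT2 (0.67, SE 0.14, not called), a ligand of ROBO receptors, and PPARGC1A (0.85, SE 0.21, not called), the coactivator of mitochondrial biogenesis. DHX15, a splicing helicase and the last member of the stretch, had only -0.11. RBPJ, the DNA-binding effector of Notch signalling, lies beyond the edge by this rule. It was nonetheless among the members' 5 largest decreases, with 11.04, 10.87 and 10.81 against 9.50, 9.70 and 9.88, a change of -1.22 (SE 0.12). Its further probe set gave -1.39. The members between DHX15 and RBPJ changed less than RBPJ, and unevenly. SOD3 was 1.29-fold lower, LGI2 had 0.02, ZCCHC4 -0.19 and SEL1L3 -0.51 with an SE of 0.68. None of these was called.

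**Figure D3:**
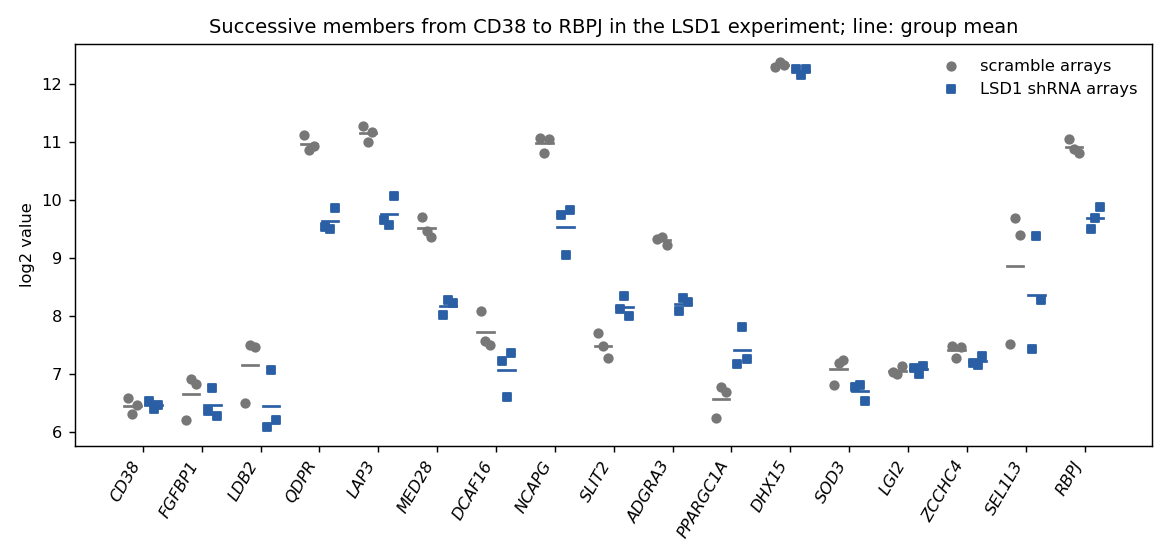
Log2 values of 17 successive members from CD38 to RBPJ on the 3 scramble arrays (grey circles) and the 3 LSD1 shRNA arrays (blue squares) of the LSD1 experiment, with each group's mean as a line. QDPR, LAP3, MED28, NCAPG, ADGRA3 and RBPJ are separated by 1.09 to 1.44, while SLIT2 and PPARGC1A, set among them, are higher with LSD1 shRNA.

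Nearer the short-arm end, the first stretch holds many ubiquitously expressed regulators. CTBP1, a corepressor that occurs in complexes with LSD1, fell by 0.34 (SE 0.07). NSD2, a histone H3 lysine 36 methyltransferase, fell by 0.51 (SE 0.11), and RNF4, a SUMO-targeted ubiquitin ligase, fell by 0.62 (SE 0.13). ADD1, which caps actin at the membrane skeleton, was at 10.15, 10.39 and 10.51 with scramble and at 9.57, 9.57 and 9.38 with LSD1 shRNA, a change of -0.85 (SE 0.12). NOP14, a ribosome assembly factor, fell by 0.84 (SE 0.16). Its antisense neighbour NOP14-AS1 had -0.50, and their signals are uncertain because the loci overlap. HTT, the huntingtin gene a little further on, was not called at -0.19 (SE 0.08). ACOX3, a peroxisomal oxidase, went from 7.88, 8.11 and 8.02 to 7.22, 6.91 and 7.06, a change of -0.94 (SE 0.11), with -0.36 at its further probe set.

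The second stretch ran from RFC1 to DCK (chr4:39287456-71030914), 39 members over 31.7 Mb, across the centromere. It was shallow and even, with a median of -0.30 and -0.303, -0.293 and -0.305 on the 3 LSD1 shRNA arrays. Calls were lower for 6 members. USP46, a deubiquitinase, was its largest called decrease, with 8.45, 8.61 and 8.51 against 7.43, 7.62 and 7.73, a change of -0.93 (SE 0.11). REST, the repressor of neuronal genes and a recruiter of CoREST and LSD1, was at 8.96, 9.04 and 8.96 with scramble and at 8.47, 8.53 and 8.30 with LSD1 shRNA, a change of -0.55 (SE 0.10). PDS5A, a cohesin regulator, fell by 0.45 (SE 0.08). CLOCK, the circadian transcription factor, had -0.48 (SE 0.12) and was not called.

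The third stretch, NAAA to CDS1 (chr4:75910655-84651334), held 21 members with a median of -0.30, and calls were lower for 4 and higher for 2. COQ2, an enzyme of ubiquinone synthesis, fell by 0.92 (SE 0.14), from 9.54, 9.99 and 9.91 to 8.81, 8.92 and 8.95. It stands directly between PLAC8 and HPSE, the called exceptions. The fourth stretch, FAM13A to H2AZ1 (chr4:88725960-99950275), held 10 members with a median of -0.32. EIF4E, which binds the mRNA cap to start translation, fell by 0.70 (SE 0.09) there, from 11.07, 10.79 and 10.88 to 10.24, 10.18 and 10.22. RAP1GDS1 fell by 0.65 and was the other call. H2AZ1, which encodes the histone variant H2A.Z, was not called at -0.16.

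The fifth stretch was the longest, from PPA2 to GATB (chr4:105369077-151761007), 55 members over 46.4 Mb of the long arm. Its median was -0.47, and -0.578, -0.377 and -0.474 on LSD1 shRNA arrays 1, 2 and 3. Calls were lower for 18 members, and 37 had non-overlapping arrays on the low side. CLGN, a testis-enriched chaperone of the endoplasmic reticulum, was at 9.20, 9.39 and 9.37 with scramble and at 8.38, 8.19 and 8.30 with LSD1 shRNA, a change of -1.03 (SE 0.10). ARSJ, a sulfatase family member, had -0.97 (SE 0.16). NAA15, the auxiliary subunit of an N-terminal acetyltransferase, went from 10.41, 9.94 and 10.05 to 9.24, 8.96 and 9.37, a change of -0.94 (SE 0.16). OTUD4, a deubiquitinase, went from 10.30, 10.42 and 10.42 to 9.35, 9.63 and 9.44, a change of -0.91 (SE 0.10). SMARCA5, the ATPase of ISWI chromatin remodellers, fell by 0.53 (SE 0.09). In each of these genes the groups were fully apart.

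The sixth stretch, HPF1 to SORBS2 (chr4:169729470-185956372), held 22 members with a median of -0.36 and 5 calls lower. MFAP3L had the largest called decrease, with 7.21, 7.82 and 7.67 against 6.32, 6.72 and 6.76, a change of -0.97 (SE 0.19). The mean of its probe sets gave -0.26 with no call (limma adjusted p = 0.080), and it was called in 1 of the 7 fits with arrays left out. HMGB2, a chromatin protein of proliferating cells, fell by 0.31 (SE 0.06). On the scramble arrays the medians of all 6 stretches lay within 0.06 of 0. These are differences from the scramble mean, and the same arrays defined the stretches, so the separation is a description.

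**Figure D4:**
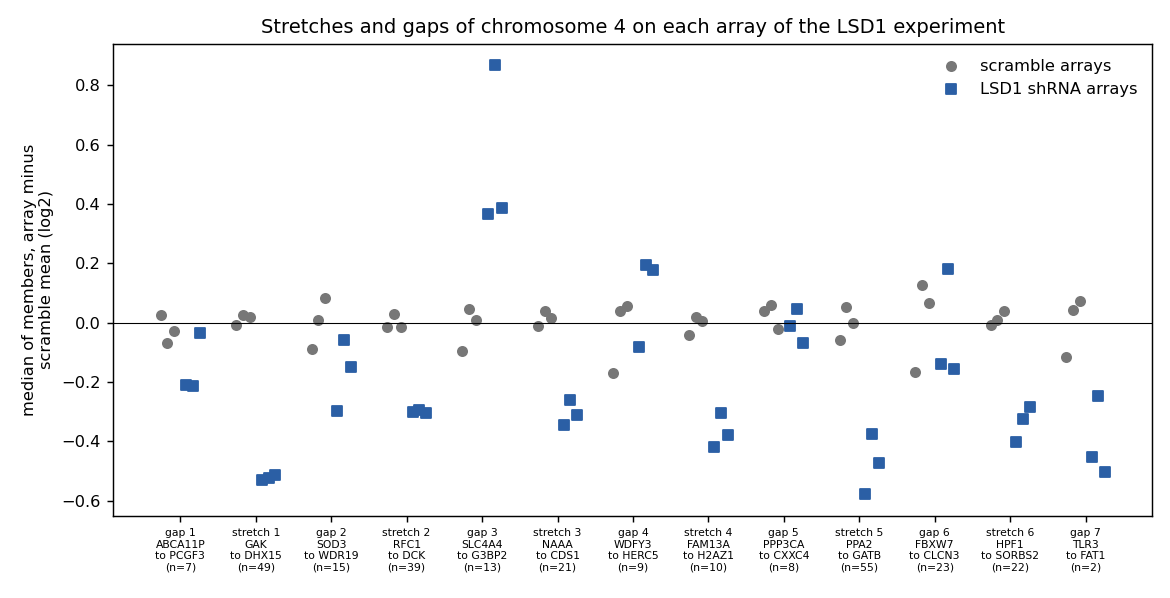
Median over the members of each stretch and gap, on each array of the LSD1 experiment, as log2 difference from the mean of the scramble arrays, in order along the chromosome with the number of members. In all 6 stretches the LSD1 shRNA arrays (blue squares) lie at -0.26 or below and apart from the scramble arrays (grey circles), while in gaps 3, 4 and 6 single arrays differ in size or sign. The stretches were defined from these same arrays, so their low medians follow from the rule and test nothing.

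Between and beside the stretches, 7 gaps held 77 members with a median of -0.06, of which 3 were called lower and 2 higher. The gap at the short-arm end, ABCA11P to PCGF3, held 7 members with a median of -0.16 and no call. The second, SOD3 to WDR19 (chr4:24795573-39285810), had a median of -0.19, close to the limit, and held RBPJ and ARAP2 (-0.92) beside PGCKA1 (0.68, called higher). The fourth, WDFY3 to HERC5, had a median of 0.08 and the fifth, PPP3CA to CXXC4, -0.07. BANK1, a scaffold of B-cell receptor signalling, lies in the fifth gap and was the largest called increase. It was at 6.89, 6.94 and 6.38 with scramble and at 7.74, 8.04 and 7.68 with LSD1 shRNA, a change of 1.08 (SE 0.18), and was still called in 1 of the 7 fits with arrays left out. The 2 members beyond the sixth stretch, TLR3 and FAT1, had -0.44 and -0.36.

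The sixth gap, FBXW7 to CLCN3 (chr4:152320544-169723673), was the longest, with 23 members over 17.4 Mb. Its median was 0.01, with 12 members at or above 0 and no call in either direction. Its array medians differed in sign, at -0.138, 0.183 and -0.155 on LSD1 shRNA arrays 1, 2 and 3. RAPGEF2 (0.02, SE 0.11) and PALLD (0.04, SE 0.09), which encode a Rap exchange factor and an actin-binding protein, had overlapping groups. DDX60, an interferon-induced helicase, was at 7.69, 7.74 and 7.51 with scramble and at 8.03, 9.25 and 8.16 with LSD1 shRNA, and was not called.

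The third gap, SLC4A4 to G3BP2 (chr4:71062660-75724437), holds the cluster of CXC chemokine genes and was the one segment with a clearly positive median, at 0.52. Of its 13 members 10 were at or above 0, and none was called. CXCL8, the neutrophil chemokine interleukin 8, was at 8.19, 9.34 and 8.95 with scramble and at 10.24, 11.95 and 10.42 with LSD1 shRNA, a difference of 2.04 (SE 0.50). CXCL1 was at 6.23, 5.87 and 6.03 with scramble and at 7.73, 9.61 and 6.96 with LSD1 shRNA, a difference of 2.06 (SE 0.61). In both genes the groups were apart, and LSD1 shRNA replicate 2 was higher than the others by more than 1.5. The gap's median on that array was 0.868, against 0.365 and 0.385 on the others. EREG, which encodes the EGF-family ligand epiregulin, had 0.67 (SE 0.25). CXCL1, CXCL2 and CXCL3 are close relatives, and 17 members, CXCL8 and CXCL2 among them, were read by probe sets marked as matching other transcripts too. A further 102 members were read by probe sets marked as shared by several transcripts.

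Inside the stretches 20 members had a change at or above 0 and are called escapees here. Of these, 2 were called higher and none lower. PLAC8, a small cysteine-rich protein of uncertain function, was at 11.71, 11.23 and 11.06 with scramble and at 12.13, 12.12 and 12.17 with LSD1 shRNA, a change of 0.81 (SE 0.16). HPSE, the heparanase that cleaves heparan sulfate in the matrix, was at 6.94, 7.39 and 7.59 with scramble and at 7.98, 8.33 and 8.37 with LSD1 shRNA, a change of 0.92 (SE 0.19). The groups did not overlap in either gene. HPSE was still called in 0 and PLAC8 in 1 of the 7 fits that left out an array or a pair of arrays. RBM47, an RNA-binding protein of epithelial cells, had the largest difference of all escapees at 1.12 (SE 0.25), with 7.70, 8.58 and 8.48 against 9.35, 9.61 and 9.16, and was not called. GPM6A (0.74) and SLC7A11 (0.63), the latter the cystine transporter, had SEs of 0.65 and 0.41 and overlapping groups. S100P, a calcium-binding protein, ranged from 6.55 to 7.96 with scramble and from 6.78 to 8.71 with LSD1 shRNA.

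The escapees were dimmer than their neighbours, with a median level of 7.37 against 9.50 (log2) for the 176 stretch members below 0. Brighter and dimmer stretch members both had low medians, but low running medians defined the stretches, so this follows in part from the rule. The 107 stretch members above the members' median level of 9.03 had a median change of -0.36, with 104 of them below 0. The 89 others had -0.42, with 72 below 0. All 3 LSD1 shRNA arrays lay below all 3 scramble arrays for 73.8% of the brighter and 48.3% of the dimmer stretch members. The 179 chromosome 4 genes that the level left out had a median of 0.01. Microarray values are compressed at low level, so changes of dim genes are understated. Probe sets that the rule did not use were also mostly lower in the stretches. Stretch members had 106 of these, for 66 genes, with a median of -0.40 and 88.7% below 0, whereas 3915 such probe sets of all genes past the level had -0.05 and 58.9%. In the gaps 27 had a median of -0.18 with 81.5% below 0, against -0.06 and 55.8% for the gap members' own probe sets, so gaps and stretches were less distinct there. The 6 of the escapees had 0.23. They come from the same RNA and arrays as the values that chose the chromosome. Among stretch members read by probe sets of a single transcript, with no mark for shared matches, the median was -0.39 over 104.

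Promoter windows were matched by symbol for 239 of the 273 members (87.5%). Stretch members below 0 had a median of 28 CpG per 300 bases, a CpG observed-over-expected ratio of 0.886 and a GC content of 65.7% (161 windows). All genes past the level had 27, 0.849 and 65.3%. Escapees had 15, 0.559 and 56.3% (16 windows), close to the 14 and 0.580 of all 27305 promoters in the table. Members in gaps had 23 and 0.755 (62 windows). Thus LAP3 and NCAPG, printed above, lie near or above the first group's median, while PLAC8 lies below that of the escapees. SLIT2 with 36 and PPARGC1A with 42 show that CpG-rich promoters also occur among escapees. No test was made of these differences, and escapees were also dimmer.

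By function, the list with the most LSD1 calls was that of chromatin and transcription regulators. All 28 of its members were below 0 with LSD1 shRNA, with a median of -0.48, and calls were 15 lower and 0 higher. For this and the lists below, the shares to set beside are those of all 273 members. Of them 80.2% were below 0 and 21.6% were called lower, where 2.85% of all genes past the level were. Beside those given above, JADE1 (-0.76) and ING2 (-0.53), both subunits of histone acetylation or deacetylation complexes, LARP7 (-0.63), which binds the 7SK RNA, and ELF2 (-0.52), an ETS factor, fell. NFKB1, in the fifth gap, had -0.10 and KLF3, in the second, -0.19. Of these 28 members 24 lie in lowered stretches.

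The S phase and mitosis list had medians of opposite sign with the 2 shRNAs. It was drawn broadly, and CCNG2, CCNI, PPAT, PAICS, EXOSC9 and DCTD are among its 21 members. All 21 were below 0 with LSD1 shRNA, with a median of -0.42 and calls of 6 lower and 0 higher. Of these 21 members 20 lie in lowered stretches, which were defined by low LSD1 values. With HDAC5 shRNA their median was 0.51, with 17 called higher and 1 lower, where the shares over all genes past the level were 30.3% and 30.7%. CCNA2, the cyclin of S phase and G2, was at 10.69, 10.73 and 10.91 with LSD1 scramble and at 10.14, 9.53 and 9.94 with LSD1 shRNA. In the HDAC5 experiment it was at 9.05, 8.94 and 9.23 with scramble and at 10.14, 10.28 and 10.24 with HDAC5 shRNA. The changes were -0.90 (SE 0.16) and 1.15 (SE 0.07). PLK4, the kinase that starts centriole duplication, went from 9.14, 9.10 and 9.18 to 8.50, 7.88 and 8.51 with LSD1 shRNA, and from 7.71, 7.73 and 7.58 to 8.92, 8.92 and 9.07 with HDAC5 shRNA. The LSD1 scramble arrays were above the HDAC5 scramble arrays in both genes. Replicate 2 of the LSD1 shRNA was the lowest array for CCNA2, PLK4, NCAPG, TACC3 and CENPU. NEIL3, TACC3 and CENPU had -0.42, -0.43 and -0.46 with LSD1 shRNA, none called, and rose by 1.24, 1.17 and 1.14 with HDAC5 shRNA. The motif TTTGAA, the core of the CHR element of late cell cycle genes, occurred on either strand in 7 of 20 promoter windows of this list (35.0%), against 9.26% of windows of genes past the level and 15.4% of all windows. NCAPG has it. The E2F motifs TTTGGCGC and TTTCCCGC and the CEBP-ATF motif TGATGCAA occurred in none of the 20.

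The chemokine and EGF-family ligand list, 6 members of the third gap, went the other way. Its median was 1.00 with LSD1 shRNA, with 0 called in either direction, and -0.87 with HDAC5 shRNA, with 5 called lower and 0 higher. Of all genes past the level 30.7% were called lower with HDAC5 shRNA. CXCL8 was at 10.61, 10.56 and 10.50 with HDAC5 scramble and at 9.12, 9.40 and 9.28 with HDAC5 shRNA, a change of -1.29 (SE 0.07). CXCL1 fell by 1.24 and CXCL2 by 1.12. Only PF4, at 0.03, was not called. In 1 fit of all 12 arrays CXCL1 and EREG lost the call, with limma adjusted p = 0.074 and 0.148.

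The other lists had medians between -0.35 and -0.16 with LSD1 shRNA and between -0.16 and 0.06 with HDAC5 shRNA. All 18 ribosomal and mitochondrial genes were below 0 with LSD1 shRNA (median -0.35, 3 called lower). RPL9 had -0.12 and RPL34 -0.31, neither called, and both have processed pseudogenes that could share signal. Metabolic and lysosomal enzymes had a median of -0.34, with 4 of 21 called lower and 1, HPSE, higher. Endoplasmic reticulum, secretory and stress genes had -0.29, with 5 of 21 called lower, and cytoskeleton, adhesion and matrix genes -0.28, with 2 of 17. Interferon-linked genes had -0.19, with 1 of 10 called lower (LAP3), and growth factors, receptors and signalling genes -0.16, with 0 of 14 called. The 122 members in no list had -0.29, with 23 called lower and 3 higher.

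With HDAC5 shRNA chromosome 4 genes were called about as often as all genes past the level, and not in long runs. The members' median was -0.009, the 13th lowest of 23 chromosomes, and each array's median was within 0.02 of 0. Calls were 78 lower (28.6%) and 88 higher (32.2%), close to the shares over all genes past the level, 30.7% and 30.3%. Only 1 lowered stretch met the rule, the 5 members from PF4 to EREG (median -0.41). One raised run, defined by the mirrored limit of 0.2, held 7 members from MAEA to HAUS3 (chr4:1289891-2242121), with a median of 0.62. In that run LSD1 shRNA gave a median of -0.43. Across the 6 LSD1 stretches the HDAC5 medians lay between -0.02 and 0.10.

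The largest HDAC5 decrease was that of S100P. It was at 10.95, 11.07 and 10.84 with scramble and at 7.64, 7.67 and 7.79 with HDAC5 shRNA, a 9.55-fold decrease (log2 change -3.26, SE 0.07). SEL1L3 fell by 1.92, from 10.66, 10.66 and 10.63 to 8.64, 8.77 and 8.78. ATP8A1, a phospholipid flippase, fell by 1.63 (-1.01 as the mean of its probe sets), GPM6A, a neuronal membrane glycoprotein, by 1.40 and SLC7A11 by 1.38. Those genes varied widely within the LSD1 experiment: the scramble arrays of SEL1L3 read 7.52, 9.69 and 9.39. The largest increases were in PCDH7, a protocadherin, from 5.72, 5.24 and 5.66 to 7.11, 7.12 and 7.21 (1.60, SE 0.12, but 0.69 as the mean of its probe sets), and NMU, the neuropeptide neuromedin U, from 8.80, 8.68 and 8.76 to 10.05, 10.15 and 10.15 (1.37, SE 0.05). HSPA4L, an HSP110-type chaperone, rose by 1.16 and SAP30, a subunit of the Sin3 deacetylase complex, by 0.96. Replicates were tighter here, with a median SD over members of 0.058 and 0.066 in the HDAC5 experiment's groups against 0.126 and 0.168 in those of the LSD1 experiment.

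**Figure D5:**
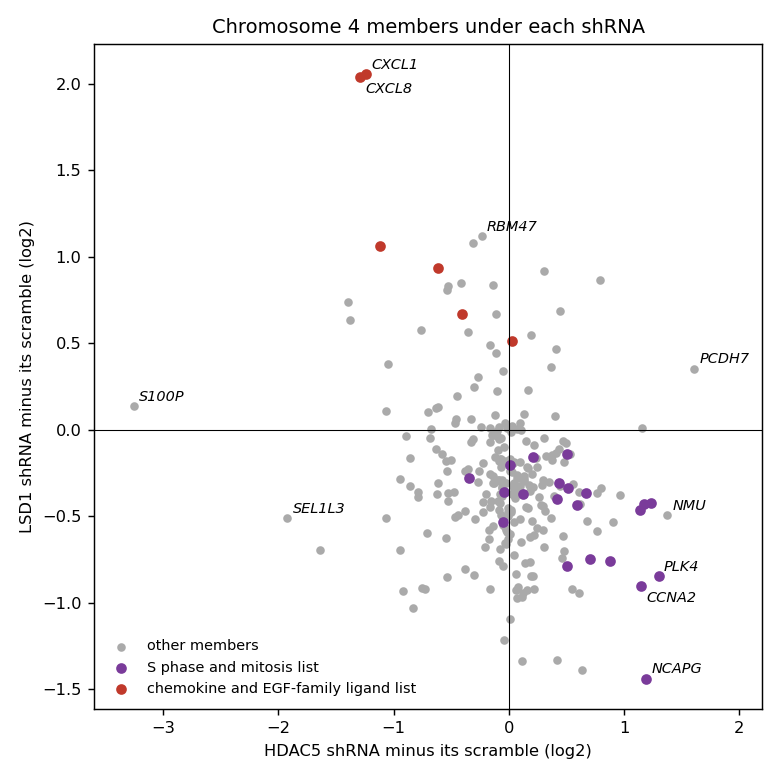
Log2 change of each member with HDAC5 shRNA (horizontal) and LSD1 shRNA (vertical), each minus its own scramble mean. The 21 genes of the S phase and mitosis list (purple) are all below 0 with LSD1 shRNA and mostly above 0 with HDAC5 shRNA. Of these genes 20 lie in stretches lowered with LSD1 shRNA. The 6 chemokine and EGF-family ligands (red) are above 0 with LSD1 shRNA.

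Across the 273 members the LSD1 and HDAC5 changes, which share no arrays, had a Pearson correlation of -0.28 and a Spearman correlation of -0.24. Over all genes past the level the values were -0.21 and -0.22. Called in both experiments were 39 members, of the 63 called with LSD1 shRNA and the 166 called with HDAC5 shRNA, a share of 61.9% and 23.5%. Over all genes past the level, 302 were called in both, 62.1% of the LSD1 calls and 6.19% of the HDAC5 calls. Those called with LSD1 shRNA were 63 of 273 members and 486 of 7996 genes. The 23.5% and 6.19% follow these shares, and the chromosome was chosen from the LSD1 values. Called with HDAC5 shRNA were 166 of 273 members and 4879 of 7996 genes, close to the shares among the LSD1 calls. Of the 39 members, 27 were lower with LSD1 shRNA and higher with HDAC5 shRNA, 8 were lower with both, 2 were higher with both and 2 were higher with LSD1 shRNA and lower with HDAC5 shRNA. The 27 are 45.8% of the members called lower with LSD1 shRNA, and the same share over all genes past the level was 39.9% (91 of 228). The difference of the changes, HDAC5 minus LSD1, was called higher for 124 members and lower for 34, where the shares over all genes past the level were 22.5% and 20.0%. Those calls use the same arrays as the changes that chose the chromosome. NCAPG, PLK4 and CCNA2 had the largest positive differences, and S100P, CXCL8 and CXCL1 the largest negative ones.

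The scramble sets also differed from each other. The LSD1 scramble minus the HDAC5 scramble had a median of 0.38 over members and 0.38 over all genes past the level, a shift that the overall levels of the experiments share. Array medians were 6.59 to 6.65 in the HDAC5 experiment and 7.05 to 7.16 in the LSD1 experiment. Calls were 163 members higher and 36 lower, beside 63.0% and 12.7% of genes past the level. By segment this median was 0.19 to 0.62 in the 6 stretches and -0.02 to 0.89 in the 7 gaps. These values use the same scramble arrays as the changes above, and the part of that difference in the LSD1 changes was not tested.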

How the data were processed

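The values are log2 expression per probe set, deposited by the authors for 12 arrays and made with RMA in the affy package, per the submitters' processing notes; their versions are not given in the sources used. RMA corrects background, equalises the arrays that are run together and summarises probes. Among such arrays a shift shared by most genes is removed, and differences at low signal are compressed. Between the experiments a shift of most genes remained, as the array medians above show. All 12 value columns were used and 0 were left over.

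Of 22277 probe sets, 62 were controls and 19064 had 1 gene symbol in the platform annotation, 1043 several and 2108 none. Gene IDs matched 19052 of the 19064 to RefSeq (GRCh38.p14), which gave symbols and positions. A gene with several probe sets was read by the one that was brightest on average over the 12 arrays. Of the members 27 had at least 1 group mean at or under the level, and 1 member had only 1 group above it. Each shRNA was compared with its own scramble in limma 3.58.1 (lmFit and eBayes with trend, R 4.3.3), with p-values adjusted over all 11963 genes by Benjamini-Hochberg; the fit was checked on simulated data. The number of arrays, 3 a group, limits the precision.

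The members, the 9 functional lists and the stretch rule were chosen with earlier results of these data known. The text names the ends of stretches, the 10 largest called decreases and increases per shRNA, the 6 largest escapees, the 3 largest differences each way, and list members. Other genes beside these (DCAF16, HTT, NOP14-AS1, LGI2, ZCCHC4, USP46, OTUD4, RAP1GDS1, ARAP2 and CRMP1 among them) were named for their position or after their values were seen. Promoter windows came from RefSeq. Alternatives were probe-set averaging, quantile normalization, other levels, windows and limits, a joint fit, a replicate block and left-out arrays; leaving out a pair of arrays and the raised-run rule were added after seeing the data.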

Additional observations from a re-analysis of the deposited data

How the results depend on the processing

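With LSD1 shRNA the members' median stayed between -0.34 and -0.28 when any array was left out and was -0.131 with no level filter, and 136 to 234 members lay in lowered stretches under all 15 alternatives run. Counts of calls were less stable. LSD1 calls lower were 131 in 1 fit of all 12 arrays, 6 without scramble B and LSD1 shRNA 2 together, and 7 to 72 with 1 array left out. Among all genes past the level, 12.1% were called lower in the 12-array fit and 0.438% without that pair. With 1 array left out this share was 0.263% to 4.29%. Calls higher were 20 in the 12-array fit, 0 without that pair, 1 above the 60th percentile, and 0 to 5 with 1 array left out. For HDAC5 shRNA, calls lower were 44 in the 12-array fit and 51 above the 60th percentile. The HDAC5 median was 0.00333 with averaged probe sets, -0.0234 after quantile normalization, 0.0313 above the 60th percentile and -0.0211 to 0.00602 with 1 array left out. Its members in lowered stretches, 5 in the report, were 16 with averaged probe sets, 0 above the 60th percentile, 0 with a window of 21, 30 at a limit of -0.1, 0 at -0.3, 17 without the genes of 2 lists, and 5 to 8 with 1 array left out. Same-numbered HDAC5 and scramble arrays had deviations correlated at -0.099, -0.338 and -0.273, so the numbers were not taken as pairs; with a replicate block the HDAC5 calls were 72 lower and 79 higher. The causes of these shifts were not tested. Of 14 named LSD1 calls 3 (QDPR, MED28 and ADGRA3) held in every fit with arrays left out, and of 21 HDAC5 calls 21 did. Under the other settings 13 of the 14 and 18 of the 21 held, with MFAP3L lost when probe sets were averaged and CXCL1, EREG and GPM6A lost in the 12-array fit.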

Other observations

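The level filter left out 179 chromosome 4 genes, which had a median of 0.01 with LSD1 shRNA. Calls were 1 lower and 3 higher, beside 2.00% and 2.93% of all 11963 genes. SPP1, which encodes osteopontin, had a mean of 3.94 ± 0.33 (SD, n = 3) with scramble and 9.88 ± 0.98 with LSD1 shRNA, a change of 5.94 (log2, SE 0.46). TDO2, which opens the indole ring of tryptophan, rose from 3.25 ± 0.24 to 5.45 ± 0.20 and ARHGAP24, a Rac GTPase-activating protein, from 4.21 ± 0.19 to 5.21 ± 0.33. FAM149A fell from 6.20 ± 0.28 to 4.61 ± 0.36. With HDAC5 shRNA 16 of the 179 were called lower and 5 higher, beside 23.2% and 21.3% of all 11963 genes. Most of the 11963 passed the level, and the shares among genes under it alone are not given here. These adjusted p-values come from limma's fit over all genes, and values this low are compressed.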
